A study of Mus musculus with 8 samples.

Results

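The Notch pathway genes Notch1, Notch2, Notch3, Dll1, Dll3, Dll4, Jag1, Hes1, Hes5 and Hey1 were followed across the cell classes of the mouse hippocampus. They are 10 of the 55367 gene symbols (55487 gene IDs) in the tables, each with 1 gene ID, taken by symbol in both hippocampal libraries. All 10 had UMIs, the unique molecular identifiers that count captured RNA molecules, in both libraries. The study sorted hippocampal cells that carried neither CD45 nor Thy1, a sort that leaves out most immune cells and many neurons. The DTRneg library came from Foxp3-DTR- mice and the DTRpos library from Foxp3-DTR+ mice, with 2 mice pooled in each, and every mouse was given diphtheria toxin. In DTR+ animals the toxin receptor sits on Foxp3-expressing regulatory T cells, which the toxin kills, so the comparison asked how the hippocampal niche looks when those cells are depleted. The strain, age, sex and toxin dose were not given in the sources used here. With 1 library a group there is no replicate check, and no test of a difference between the genotypes was possible. Intervals below are 95% intervals and cover counting error only, and a difference between the libraries cannot be told apart from a difference between pools of mice or between library preparations.

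Notch signalling passes between touching cells. A ligand of the Delta-like or Jagged family on a sending cell binds a Notch receptor on its neighbour, the receptor is cleaved by ADAM and gamma-secretase proteases, and its intracellular part joins the DNA-binding protein Rbpj to turn on target genes such as those of the Hes and Hey families, which encode transcriptional repressors. In the adult hippocampus the pathway is known for holding neural stem cells back from differentiation, and in blood vessels it is known for shaping arterial endothelium and for the upkeep of mural cells, the pericytes and smooth muscle cells that wrap the vessel.

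Hes5 is a textbook direct target of Notch, and its promoter is shown because it was the only promoter window among the genes studied to hold TGGGAA, the core letters that Rbpj is known to bind. RefSeq windows of 250 bases before the start (build GRCm38.p6) were at hand for 8 of the 10 genes, 9 windows in all. Of the others, Hes1 lies at chr16:30064384-30067796 (plus strand) and Hey1 at chr3:8663359-8667256 (minus strand). Hes5 lies at chr4:154960923-154962371 on the plus strand (GENCODE annotation), and its window is chr4:154960673-154960922. The letters occur at positions -226 (minus strand, so written TTCCCA here) and -82 (plus strand) from the start, and both are in capitals. TGGGAA on either strand was found in 21.6% of all 32851 promoter windows of that length, so a match is a description and not a site. The windows of Dll4 (chr2:119325534-119325783, plus strand) and Notch3 (chr17:32166891-32167140, minus strand) are printed beside it, because most of the UMIs of this ligand and this receptor lay in 1 class. Neither holds the letters on either strand.
Hes5: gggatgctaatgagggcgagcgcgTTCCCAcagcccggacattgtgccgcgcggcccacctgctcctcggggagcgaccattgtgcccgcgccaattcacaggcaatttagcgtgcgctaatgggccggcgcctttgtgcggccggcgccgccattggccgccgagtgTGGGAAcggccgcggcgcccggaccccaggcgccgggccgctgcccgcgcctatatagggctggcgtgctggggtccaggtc
Dll4: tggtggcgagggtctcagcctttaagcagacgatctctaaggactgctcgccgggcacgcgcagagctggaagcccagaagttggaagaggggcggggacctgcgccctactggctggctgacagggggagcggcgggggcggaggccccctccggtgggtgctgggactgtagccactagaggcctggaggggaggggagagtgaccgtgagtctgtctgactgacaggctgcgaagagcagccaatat
Notch3: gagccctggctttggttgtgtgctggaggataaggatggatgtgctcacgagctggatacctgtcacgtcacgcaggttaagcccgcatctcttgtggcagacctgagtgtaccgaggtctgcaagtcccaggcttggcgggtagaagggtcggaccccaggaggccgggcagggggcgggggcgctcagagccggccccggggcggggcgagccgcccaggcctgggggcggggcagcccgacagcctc

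Cells were placed into 7 classes by a gate on 1 marker gene each: at least 2 UMIs of the own marker and at most 1 of every other. Aqp4 UMIs were allowed in Riiad1+ cells. After filtering, the DTRneg library held 6864 cells (median 6003.5 UMIs) and the DTRpos library 5691 (median 4509), and 15 cell barcodes occurred in both. The classes, DTRneg cells first, were Mog+ (3695 and 2565 cells), Pdgfra+ (691 and 829), Aqp4+ (640 and 678), Cldn5+ (476 and 348), Rgs5+ (190 and 154), Igfbpl1+ (184 and 135) and Riiad1+ (31 and 23). The summed markers of the named type stood highest of all cell-type lists in 6 of the classes: mature oligodendrocyte genes in Mog+ cells at 19131 and 19355 UMIs per 1000000 UMIs of the class (CPM), oligodendrocyte precursor genes in Pdgfra+ cells at 8850 and 8963, astrocyte genes in Aqp4+ cells at 18141 and 20397, endothelial genes in Cldn5+ cells at 20322 and 22732, pericyte genes in Rgs5+ cells at 32982 and 39079, and neuroblast genes in Igfbpl1+ cells at 16895 and 16934. Each of these lists includes the gate gene of its class, so part of each sum was set by the gate. In Riiad1+ cells all 8 neural stem cell markers of the list, the gate gene Riiad1 among them, had UMIs in the DTRneg library. They summed to 3726 and 3194 CPM, above every other class, yet the astrocyte list stood higher there (13334 and 15312 CPM). The 4-gene choroid plexus list, nearly all of it Ttr RNA, was higher in DTRneg cells of several classes: 8851 against 24 CPM in Riiad1+, 3593 against 16 in Rgs5+, 1761 against 35 in Cldn5+ and 1175 against 31 in Igfbpl1+ cells. The other choroid genes were at or near 0 in Riiad1+ cells: Folr1 had 3 UMIs in the DTRneg library and Kl and Kcnj13 none. Microglia and T cell genes reached at most 12 CPM in any class, so the loss of regulatory T cells could not be checked in these cells. The labels name neurons and glia, but only 3 and 2 cells outside the gates held at least 5 UMIs of the 5 neuron genes.

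**Figure D1:**
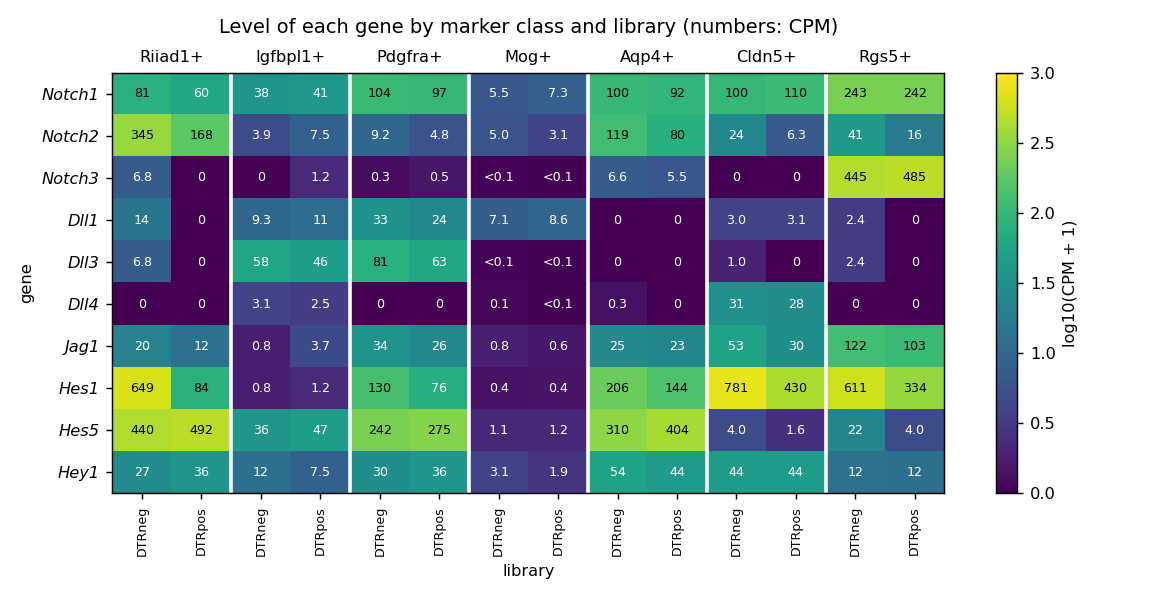
Level of each gene (rows) in each marker class and library (columns), printed in CPM and coloured on a log10 scale with 1 CPM added; a cell reads 0 only where no UMI was counted. Notch3 stands in Rgs5+ cells, Dll4 in Cldn5+ cells, Dll3 in Pdgfra+ and Igfbpl1+ cells, and Mog+ cells are below 9 CPM for every gene.

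Each receptor had its own distribution over the classes. Levels are given in CPM of the class, DTRneg first, and a gene is compared with itself across classes, not with other genes. Notch1 (chr2:26457903-26516663, minus strand), the receptor most widely used in neural stem cells and endothelium, was broad. It stood highest in Rgs5+ cells, at 243 (interval 198 to 296) and 242 (185 to 311), apart from the next class in both libraries. A shared middle level followed in Cldn5+ cells (99.8 and 109.9), Pdgfra+ cells (104 and 97.3), Aqp4+ cells (99.95 and 92.3) and Riiad1+ cells (81.1 and 60.0), whose neighbouring intervals overlapped in both libraries. Igfbpl1+ cells were lower (38.2 and 41.2) and Mog+ cells lowest (5.55 and 7.33), and that last step was again apart in both libraries.

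Notch2 (chr3:98013527-98150361, plus strand), a receptor linked to the quiescence of neural stem cells, was highest in the astroglial classes among those gated. Riiad1+ cells stood first at 345 (257 to 453) and 168 (91.9 to 282), and Aqp4+ cells next at 119 (107 to 132) and 80.0 (69.3 to 91.8), each apart from the class below it. Rgs5+ cells had 41.4 and 15.9, Cldn5+ cells 24.0 and 6.28, and the remaining 3 classes at most 9.21. Fibroblast-like cells, which no gate covers, held 225 and 119.7 CPM in 31 and 23 cells, so high Notch2 was not limited to astroglia. Where Notch1 and Notch2 UMIs of a class are pooled, Notch2 made up 54.4% in Aqp4+ cells of DTRneg mice but 8.13% in Pdgfra+ cells, although both classes had about the same Notch1 level.

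Notch3 (chr17:32120820-32166852, minus strand), the receptor of vascular mural cells, was found mostly in Rgs5+ cells, at 445 (383 to 515) and 485 (403 to 579). Of all 217 Notch3 UMIs in DTRneg cells, 183 lay in that class, and 122 of 157 in DTRpos cells. Aqp4+ cells had 6.62 and 5.54 CPM. Cldn5+ cells had no UMI in either library, which allows at most 2.995 and 4.71 CPM, at a depth close to that of Rgs5+ cells (median 1984 and 1608.5 UMIs against 1995 and 1520.5). Of Rgs5+ cells, 61.1% (DTRneg) and 49.4% (DTRpos) held a Notch3 UMI, and with every cell thinned to 2000 UMIs the shares of the 94 and 30 cells deep enough were 54.3% (43.7 to 64.6) and 60.0% (40.6 to 77.3).

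The ligands differed in where they were found. Dll3 (chr7:28293553-28302238, minus strand), a Delta-like protein known to act within the cell as an inhibitor of Notch rather than as an activating ligand, was found in Pdgfra+ cells (81.3, interval 72.4 to 91.0, and 62.7, 55.0 to 71.3) and Igfbpl1+ cells (58.4, 46.0 to 73.2, and 46.2, 32.5 to 63.6), whose intervals overlapped. No Dll3 UMI was counted in 640 and 678 Aqp4+ cells, which allows at most 1.04 and 1.19 CPM, and Mog+ cells held 2 and 1. Dll1 (chr17:15367354-15376872, minus strand), an activating ligand, shared the peak in Pdgfra+ cells (33.3 and 24.5) and differed from Dll3 in Mog+ cells, where it kept 7.08 (6.23 to 7.999) and 8.61 (7.44 to 9.90). Igfbpl1+ cells had 9.35 and 11.2 CPM of Dll1 on 12 and 9 UMIs, with intervals that overlapped those of Mog+ cells in both libraries. Of the Dll1 and Dll3 UMIs pooled, Dll1 made up 29.1% and 28.0% in Pdgfra+ cells and 99.2% and 99.5% in Mog+ cells. Dll1 too was without a UMI in Aqp4+ cells, so the class with the second-highest Notch2 and Hes5 held neither of these Delta-like ligands at this depth.

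Dll4 (chr2:119325784-119335962, plus strand), the endothelial Delta-like ligand, stood in Cldn5+ cells at 31.0 (21.03 to 43.9) and 28.3 (16.8 to 44.7). These were 31 of the 40 Dll4 UMIs in DTRneg cells and 18 of 21 in DTRpos cells, and Rgs5+, Pdgfra+ and Riiad1+ cells had none in either library. Jag1 (chr2:137081456-137116644, minus strand), a ligand of the Jagged family, was highest in Rgs5+ cells at 122 (90.3 to 160.3) and 103 (67.5 to 151), apart from the next class in both libraries. Cldn5+ cells followed at 52.9 and 29.8, Pdgfra+ cells at 34.4 and 26.3 and Aqp4+ cells at 25.1 and 22.6, with overlapping intervals between neighbours. Igfbpl1+ and Mog+ cells had at most 3.74. Pdgfra+ cells thus held Dll1, Dll3 and Jag1, Igfbpl1+ cells mainly Dll3 with less Dll1, and Mog+ cells mainly Dll1. The vascular classes held Jag1, with Dll4 in Cldn5+ cells.

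The targets were spread in different ways. Hes5 was an astroglial and precursor gene: 439.5 (339 to 560) and 492 (353 to 668) in Riiad1+ cells, 310 (290 to 331) and 404 (379 to 429) in Aqp4+ cells, and 242 (227 to 259) and 275 (259 to 293) in Pdgfra+ cells. Igfbpl1+ cells had 35.8 and 47.4. In the vessel classes Hes5 was near 0: 4 and 1 UMIs in Cldn5+ cells, and 9 and 1 in Rgs5+ cells, where the 9 UMIs lay in 1 cell. Hes1, a target that other signals also switch on, was highest in Cldn5+ cells, at 781 (727 to 837) and 430 (381 to 484). Within that class its level was higher in cells rich in genes of dissociation stress, as given below. Rgs5+ cells had 611 (537 to 691) and 334 (266 to 413). Riiad1+ cells had 649 (526 to 793) and 84.1, above Rgs5+ cells in DTRneg, with overlapping intervals, and below them in DTRpos. Hes1 was also present in Aqp4+ cells (206 and 144) and Pdgfra+ cells (130.1 and 76.0). Igfbpl1+ and Mog+ cells held at most 1.25 CPM of Hes1, against 130.1 and 76.0 in the Pdgfra+ precursors.

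Hey1, a repressor linked to arterial endothelium and to quiescent stem cells, was more even. Aqp4+ cells had 54.0 and 43.6, Cldn5+ cells 43.9 and 44.0, Pdgfra+ cells 29.8 and 36.4 and Riiad1+ cells 27.0 and 36.0, and no step between these neighbours was apart in either library. Rgs5+ cells had 12.2 and 11.9 on 5 and 3 UMIs, so the class with the most Notch1, Notch3 and Jag1 held little Hey1. Mog+ cells were lowest at 3.11 and 1.94.

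**Figure D2:**
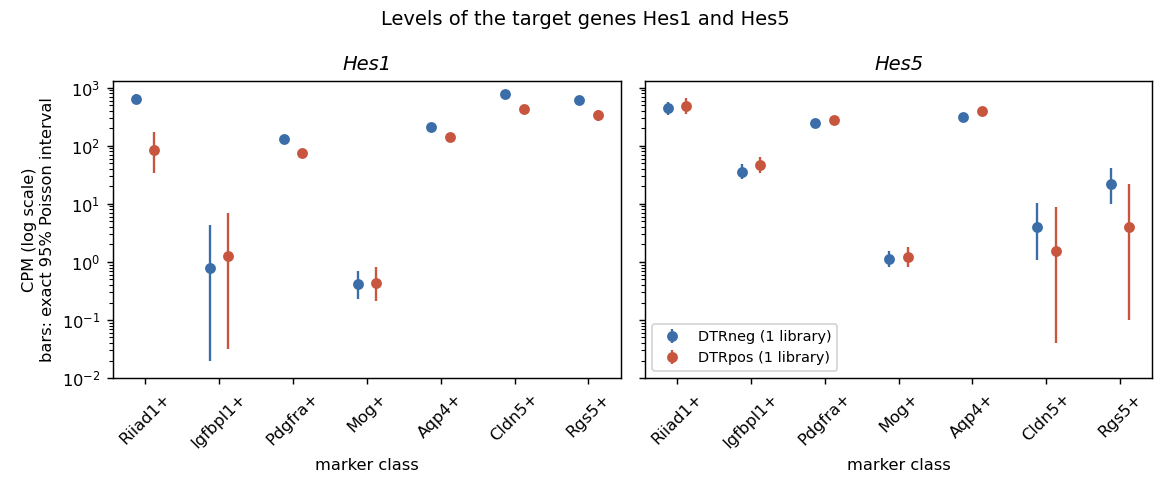
Levels of Hes1 and Hes5 in CPM on a log axis, by marker class, with 1 point per library and exact 95% Poisson intervals. Hes1 stands lower in the DTRpos library in Riiad1+, Pdgfra+, Aqp4+, Cldn5+ and Rgs5+ cells, while Hes5 stands at or above the DTRneg level in Riiad1+, Igfbpl1+, Pdgfra+, Mog+ and Aqp4+ cells.

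Between the libraries, the genes that stood apart were Hes1 and Notch2, both lower in DTRpos, while the Hes5 ratio was above 0 in the 5 classes with enough UMIs. A ratio is the DTRpos level over the DTRneg level on the log2 scale, so a negative value means less in DTRpos mice. Of the 70 pairs of gene and class, 33 had at least 50 UMIs over both libraries. Of these, 9 lay past 1.5-fold and all 9 were lower in DTRpos, and 0 were higher. As background, the share of all genes that lay past 1.5-fold on the lower side by the same rule was 3.24% in Pdgfra+ cells, where 2 of 8 members did, 2.10% in Mog+ cells (2 of 5), 4.64% in Cldn5+ cells (2 of 4), 6.86% in Rgs5+ cells (1 of 4) and 7.52% in Riiad1+ cells (2 of 3). In Aqp4+ cells 0 of 6 did, beside 3.20% of all genes, and in Igfbpl1+ cells 0 of 3, beside 5.19%. On the higher side, where no member lay, the background was 8.28% in Riiad1+, 4.77% in Igfbpl1+, 2.92% in Pdgfra+, 3.13% in Mog+, 3.59% in Aqp4+, 5.28% in Cldn5+ and 5.14% in Rgs5+ cells. The median ratio of the members tested was -1.04 in Riiad1+, 0.11 in Igfbpl1+, -0.38 in Pdgfra+, 0.12 in Mog+, -0.23 in Aqp4+, -0.41 in Cldn5+ and -0.12 in Rgs5+ cells, and over all genes tested it lay between 0.02 and 0.07.

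**Figure D3:**
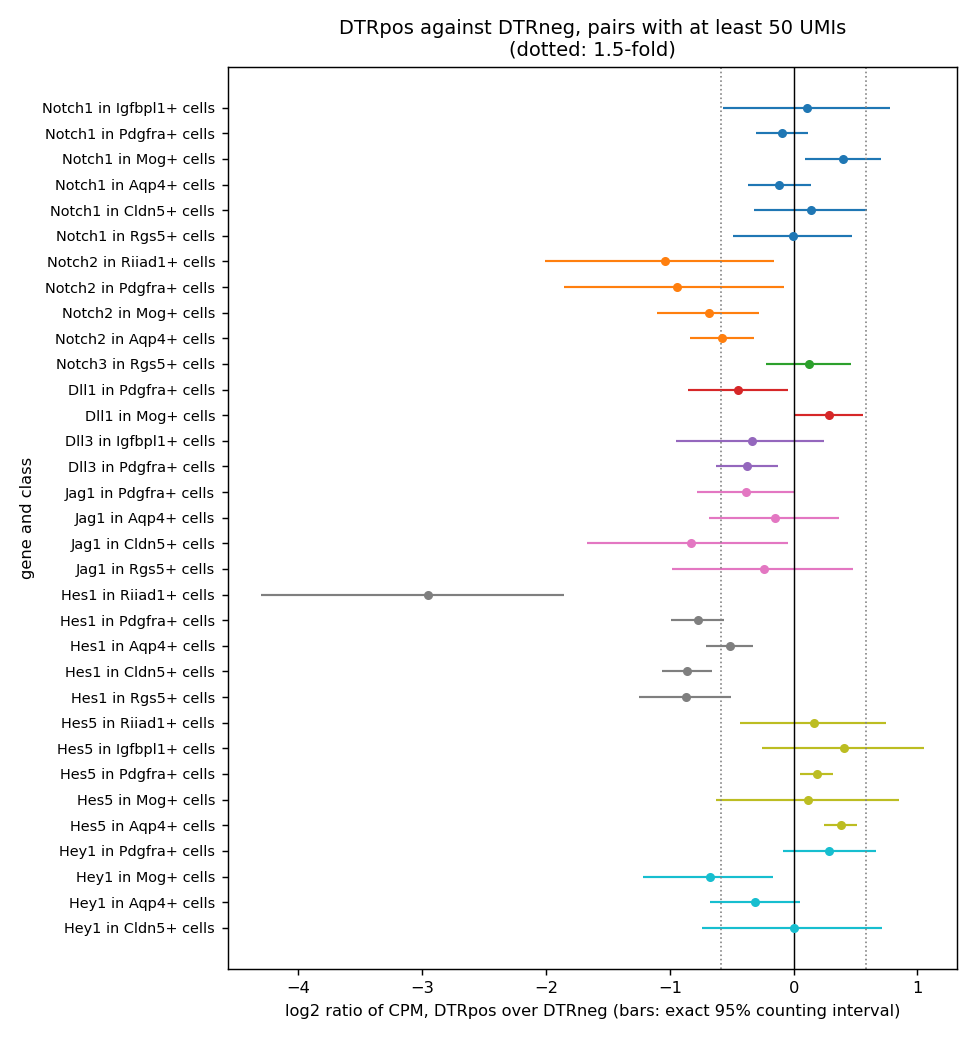
Log2 ratio of DTRpos over DTRneg for the 33 pairs of gene and class with at least 50 UMIs, with exact 95% counting intervals; the solid line is 0 and the dotted lines are 1.5-fold. All 5 Hes1 ratios and all 4 Notch2 ratios lie left of 0, and the 5 Hes5 ratios lie right of it.

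Hes1 was lower in DTRpos in 5 of the 5 classes with enough UMIs. In Pdgfra+ cells it had 480 UMIs (130.1 CPM) against 286 (76.0 CPM), a ratio of -0.77 (-0.99 to -0.56), and 1.46% of the genes tested in that class had a lower ratio. In Cldn5+ cells 782 UMIs stood against 274 (-0.86, -1.06 to -0.66), with 1.37% of genes lower. In Rgs5+ cells 251 stood against 84 (-0.87, -1.25 to -0.51), with 2.76% lower. The Aqp4+ ratio of -0.52 (-0.71 to -0.33) stopped short of 1.5-fold but its interval also lay below 0. In Riiad1+ cells 96 UMIs stood against 7 (-2.95, -4.30 to -1.85). There 5 of the 31 DTRneg cells held 72.9% of the Hes1 UMIs and 1 cell held 36, so the size of that ratio rests on few cells. In the 17 and 21 Riiad1+ cells without a Ttr UMI, an alternative added after seeing the data, Hes1 had 44 UMIs against 6 (-2.84, -4.36 to -1.60).

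The share of cells with a Hes1 UMI moved the same way at equal depth. With each cell thinned to 2000 UMIs, 19.5% of Pdgfra+ cells held Hes1 in DTRneg and 12.2% in DTRpos (34.7% and 22.3% before thinning), and in Aqp4+ cells 28.7% and 22.04% did (40.9% and 30.1%). The thinned intervals were apart in Pdgfra+ cells (16.5 to 22.8 and 9.99 to 14.7). In Aqp4+ cells they overlapped (25.0 to 32.6 and 18.8 to 25.5). They also overlapped in Cldn5+ (48.3% and 40.3%), Rgs5+ (53.2% and 36.7%) and Riiad1+ cells (38.7% and 20%). In Mog+ cells, which carry almost no Hes1 although they were the deepest class (median 7645 and 6379 UMIs against 5244 and 4419 in Pdgfra+ cells), the thinned shares were 0.109% and 0.0804%. The choroid plexus difference between the libraries moved with Hes1 in the Cldn5+ and Rgs5+ classes, and its part in the result there was not tested. In Aqp4+ and Pdgfra+ cells the choroid list stood at 102 and 34 CPM and at 342 and 248 CPM. Haemoglobin genes, the red blood cell list, stood at 4579 against 45 CPM in Pdgfra+ cells, and with haemoglobin, mitochondrial and ribosomal genes left out of the totals the Hes1 ratio there was -0.78. Fibroblast genes (210.3 against 122 CPM) and pericyte genes, nearly all of them Vtn (221 against 126 CPM), were also lower in DTRpos in Pdgfra+ cells. In the 649 and 796 Pdgfra+ cells without a UMI of the fibroblast list or Vtn, an alternative added after seeing the data, Hes1 had 395 UMIs against 243 (-0.76, -0.99 to -0.52).

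Hes1 also answers quickly to stimuli other than Notch, so a list of 15 genes known to rise when tissue is dissociated (Fos, Jun, Egr1, Atf3, Hspa1a and others, added after seeing the data) was set beside it. The list was higher in DTRpos in Aqp4+ cells (1145 against 1402 CPM) and Igfbpl1+ cells (6772 against 7497), and lower in Cldn5+ (23243 against 21069), Rgs5+ (16522 against 15416) and Pdgfra+ cells (4167 against 3727). Riiad1+ cells had 5200 against 4696 CPM and Mog+ cells 2338 against 2397. At 2000 UMIs a cell, the median of the list was higher in DTRpos in Cldn5+ (41 against 45 UMIs) and Rgs5+ cells (15.5 against 26.5). The means there were lower in DTRpos (54.1 against 51.1, and 36.7 against 33.8). Cells thinned to 2000 UMIs were then split into 3 bands by their UMIs of that list. The bands are wide, with the high band running up to 140 list UMIs in Pdgfra+ and 192 in Cldn5+ cells. They therefore do not match the libraries closely for stress, and its part in the Hes1 difference was not tested. Hes1 was lower in DTRpos in 3 of 3 bands in each of Pdgfra+, Aqp4+, Cldn5+ and Rgs5+ cells, with intervals below 0 in 2, 1, 2 and 2 of them. In Pdgfra+ cells the ratios from the low to the high band were -0.95, -0.49 and -1.16, and in Aqp4+ cells -1.06, -0.48 and -0.30. In Cldn5+ cells the band with the fewest stress UMIs showed almost no difference (-0.07, -0.74 to 0.56), while the middle and high bands had -1.01 and -0.85. The Rgs5+ bands, low to high, rest on 7, 15 and 8 DTRpos cells with 4, 7 and 3 Hes1 UMIs. In Riiad1+ cells the low band held 2 Hes1 UMIs in each library. The level itself also differed between bands. In Cldn5+ cells Hes1 was 427 CPM in the low and 1579 in the high band of DTRneg, and 405 and 879 in DTRpos. In Pdgfra+ cells it was 163 and 143, and 84.1 and 64.0. Cldn5+ cells had the most of both Hes1 and the list, while Igfbpl1+ cells had more of the list than Pdgfra+ cells but almost no Hes1. The part of stress in the order of the classes was not tested.

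**Figure D4:**
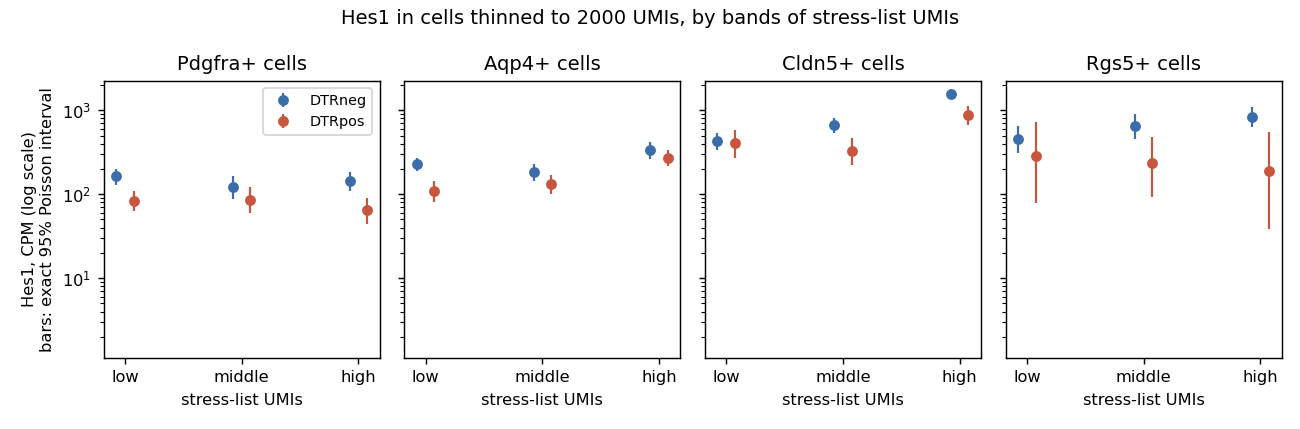
Hes1 level in CPM on a log axis in cells thinned to 2000 UMIs, by class and by bands of their summed UMIs of 15 dissociation stress genes, with exact 95% Poisson intervals. The DTRpos points lie below the DTRneg points in every band of the 4 classes drawn, and the pair in the low band of Cldn5+ cells nearly coincides.

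Hes5 behaved differently in the same cells. Its ratio was 0.38 (0.25 to 0.51) in Aqp4+ cells, on 891 and 1020 UMIs, and 0.19 (0.05 to 0.32) in Pdgfra+ cells, on 894 and 1036. In Riiad1+ (0.16), Igfbpl1+ (0.40) and Mog+ cells (0.12) the interval included 0. When the UMIs of both genes are pooled, the Hes1 share was 39.9% (37.4 to 42.5) in Aqp4+ cells of DTRneg mice and 26.3% (24.0 to 28.7) in DTRpos mice. In Pdgfra+ cells it was 34.9% (32.4 to 37.5) and 21.6% (19.4 to 24.0), and in Riiad1+ cells 59.6% (51.6 to 67.3) and 14.6% (6.07 to 27.8). These ratios within a cell class do not depend on the total UMIs of the library, and in each of these 3 classes the intervals of the libraries did not overlap. In Riiad1+ cells, however, 1 DTRneg cell held 36 of the 96 Hes1 UMIs, a clumping that the interval does not take in. Within the stress bands the Hes5 ratio in Aqp4+ cells was above 0 in 3 of 3 (0.65, 0.18 and 0.12), and in Pdgfra+ cells it lay between -0.09 and 0.14. With cells thinned before the gate it was -0.05. Over all classes the Hes5 ratio was below 0 in 7 of the 13 bands that gave one, among them 2 of 3 in Riiad1+ and 2 of 2 in Igfbpl1+ cells, on at most 15 UMIs a library, and no band had an interval below 0.

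Among the receptors Notch2 was lower in DTRpos in all 4 classes with enough UMIs. In Aqp4+ cells 342 UMIs stood against 202 (-0.57, -0.83 to -0.32), in Mog+ cells 179 against 70 (-0.68, -1.10 to -0.28), in Pdgfra+ cells 34 against 18 (-0.95, -1.86 to -0.08) and in Riiad1+ cells 51 against 14 (-1.04, -2.005 to -0.16). The last 3 lay past 1.5-fold, and 1.41% of genes tested in Mog+ cells and 3.38% of those in Aqp4+ cells had a lower ratio. In Riiad1+ cells the 14 DTRpos UMIs lay in 6 of 23 cells, and 5 cells held 92.9% of them. The size of that ratio rests on few cells, and it ran from -3.76 to -0.71 over the alternatives. Cldn5+ and Rgs5+ cells, under 50 UMIs, pointed the same way (24 UMIs against 4, and 17 against 4). In Rgs5+ cells the astrocyte list was also lower in DTRpos (837 against 215 CPM), and its part in that was not tested. In Mog+ cells the ratio differed between the stress bands: it was -2.60 in the low band, -1.34 in the middle and 0.57 (-0.78 to 1.91) in the high band, on 11 UMIs in each library. In Aqp4+ cells it was below 0 in 3 of 3 bands. Without the Pdgfra+ cells that held fibroblast or Vtn UMIs, Notch2 in that class was 19 UMIs against 10 (5.44 and 2.75 CPM) and the interval of its ratio of -0.98 included 0 (-2.25 to 0.20). Igfbpl1+ cells, with 5 and 6 UMIs, were too sparse to compare.

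The other receptors differed little. Notch1 lay within 0.14 of 0 in 5 of its 6 classes, each with an interval that included 0: -0.10 in Pdgfra+, -0.12 in Aqp4+, 0.14 in Cldn5+, 0.11 in Igfbpl1+ and -0.0049 in Rgs5+ cells. With cells thinned before the gate, which left 19 Notch1 UMIs in Igfbpl1+ cells, the ratio there was -0.75. In Mog+ cells, where it was scarce, it was higher in DTRpos (200 and 166 UMIs, 0.40, 0.10 to 0.70). Notch3 in Rgs5+ cells had a ratio of 0.12 (-0.22 to 0.46). The Notch2 share of the Notch1 and Notch2 UMIs was 54.4% (50.4 to 58.3) against 46.4% (41.7 to 51.2) in Aqp4+ cells and 47.2% (42.1 to 52.4) against 29.7% (23.9 to 35.9) in Mog+ cells, and the intervals overlapped in the former and not in the latter.

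In Pdgfra+ cells, where Dll1 and Dll3 peaked, both ligands were lower in DTRpos. Dll3 had 300 UMIs against 236 (-0.37, -0.63 to -0.12) and Dll1 123 against 92 (-0.45, -0.85 to -0.04), and Jag1 had 127 against 99 with an interval that touched 0 (-0.39). None of these reached 1.5-fold. Dll3 in Igfbpl1+ cells had -0.34 (-0.95 to 0.25). In Mog+ cells Dll1 went the other way, 255 UMIs against 195 in fewer cells (0.28, 0.01 to 0.56). Jag1 in Cldn5+ cells was past 1.5-fold, 53 UMIs against 19 (-0.83, -1.67 to -0.05), but in cells thinned to 2000 UMIs before the gate the ratio was -0.21. Where Jag1 was highest, in Rgs5+ cells, its ratio of -0.24 (-0.98 to 0.48) did not leave 0, nor did that of -0.15 (-0.68 to 0.37) in Aqp4+ cells. With cells thinned before the gate these ratios were -1.06 and -0.73, on 29 and 46 UMIs, and with a stricter minimum of genes per cell the former was -0.72. Dll4, with 31 and 18 UMIs in Cldn5+ cells, was below the minimum for a ratio. Hey1 was past 1.5-fold in Mog+ cells (112 UMIs against 44, -0.68, -1.22 to -0.16), and its intervals included 0 in Pdgfra+ (0.29), Aqp4+ (-0.31) and Cldn5+ cells (0.0013).

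The other genes of the pathway served as a wider view. A list of 57 of them, sorted by role, had 52 with at least 50 UMIs in some class, which gave 180 pairs of gene and class. Past 1.5-fold lay 12 pairs, 5 higher and 7 lower in DTRpos, beside the shares of all genes given above, which ran from 2.10% to 8.28% per class and direction. Ratios were above 0 in 94 pairs and below in 86, with a median of 0.02. No pair was past 1.5-fold in Mog+ cells (0 of 41) or Aqp4+ cells (0 of 37). The target genes that moved with Hes1 were few. Nrarp, a target that feeds back on the receptor, was lower in Pdgfra+ cells (40.4 against 23.7 CPM, -0.77, -1.17 to -0.38), but not clearly in Aqp4+ cells (70.7 against 57.8, -0.29, -0.61 to 0.02), and in Cldn5+ cells its levels were 38.9 and 48.7 (0.32, -0.41 to 1.04). Sox9, a glial transcription factor, was lower in Riiad1+ cells (690 against 396 CPM, -0.80, -1.41 to -0.22) and in Aqp4+ cells by less than 1.5-fold (631 against 529, -0.25, -0.36 to -0.15). Targets and linked genes together had 16 ratios above and 23 below 0.

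In Igfbpl1+ cells the differences pointed both ways. Neurog2, a proneural factor of the granule neuron lineage, was lower in DTRpos (109 against 68.6 CPM, -0.67, -1.15 to -0.21). The ubiquitin ligase Mib1, which readies ligands for signalling, was higher (21.8 against 38.7, 0.83, 0.04 to 1.62). In these cells 3 of 24 list genes lay past 1.5-fold on the higher side and 2 on the lower side, beside 4.77% and 5.19% of all genes.

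Other genes of the list act in the machinery of the pathway. Psenen, a gamma-secretase subunit and the cleavage gene with the most UMIs, had ratios from -0.31 in Rgs5+ cells to 0.13 in Pdgfra+ and Cldn5+ cells. Snw1, the gene of the nuclear complex with the most UMIs, ran from -0.26 in Rgs5+ to 0.13 in Pdgfra+ cells among classes with at least 50 UMIs. Itch, a ubiquitin ligase of receptor turnover, was between -0.24 and 0.35 in 5 classes and past 1.5-fold in Rgs5+ cells on 45 and 17 UMIs (-0.70, -1.59 to 0.14). Adam10, the receptor's first protease, was past 1.5-fold higher there on 25 UMIs in each library (0.71), with an interval that included 0 (-0.15 to 1.57). Fbxw7, which marks the active receptor for destruction, and the corepressor Cir1 were lower in Cldn5+ cells (-0.63, -1.57 to 0.24, and -0.85, -1.60 to -0.14). The genes with the most UMIs in the other roles were Cntn1 (796 and 742 CPM in Pdgfra+ cells), Poglut1 (43.0 and 48.6 CPM in Mog+ cells, 0.18), Mib1, and the fourth receptor Notch4, which was highest in Cldn5+ cells at 42.9 and 45.5 CPM (0.09, -0.65 to 0.80).

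Within classes, levels of the Notch genes differed between known subtypes. Among Cldn5+ cells, those with at least 2 UMIs of 6 arterial genes (36 and 28 cells) were set against those with none (414 and 298 cells), at a similar median depth (2006 and 1899 against 1934 and 1563 UMIs). Hey1 was 184 against 31.4 CPM in DTRneg (log2 difference 2.55, 1.51 to 3.53) and 170.0 against 30.7 in DTRpos (2.47, 1.22 to 3.67). Dll4 was 105 against 26.7 CPM in DTRneg (1.97, 0.60 to 3.19), and in DTRpos the arterial cells held only 3 Dll4 UMIs. Hes1 stood at 565 against 807 CPM (-0.52, -0.995 to -0.07) and 294 against 467 CPM (-0.67, -1.43 to 0.01), and with at least 3 arterial UMIs asked for the differences were -0.31 and -0.37, on Hes1 levels whose intervals overlapped. In DTRneg cells with venous UMIs Hey1 was lower than in those without, at 26.8 against 59.6 CPM on 11 and 24 UMIs (-1.15, -2.33 to -0.07). In DTRpos it was 5.28 against 76.4 CPM, on only 1 UMI against 23 (-3.85, -9.22 to -1.23). Lower Hes1 was not particular to arterial cells. With venous UMIs it was 783 against 860 CPM in DTRneg (-0.14, -0.36 to 0.09) and 280 against 558 CPM in DTRpos (-0.99, -1.47 to -0.54). The arterial Hey1 difference was smaller when cells were thinned to 2000 UMIs and split at 1 list UMI (1.31 and 1.73).

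Among Igfbpl1+ cells, those with at least 2 UMIs of 7 cell cycle genes (44 and 23 cells) were set against those with none (123 and 102 cells). Notch1 was higher in the cycling cells in both libraries, at 83.2 against 22.1 CPM (1.92, 1.03 to 2.84) and 97.3 against 24.6 (1.99, 0.86 to 3.13). Hes5 was higher there as well, at 91.5 against 13.5 (2.76, 1.74 to 3.896) and 109 against 31.6 (1.79, 0.77 to 2.82), although 5 cells held 82.6% and 60.5% of all Hes5 UMIs of the class. Dll3 did not follow them: it had 49.9 against 61.3 CPM and 30.4 against 54.4, with intervals that included 0. In Pdgfra+ cells the cycling cells (22 and 16) held Hes5 at 172 against 253 CPM in DTRneg (-0.55, -1.20 to 0.03) and 99.8 against 279.7 CPM in DTRpos (-1.49, -2.55 to -0.60; -0.13 after thinning). Notch1 in these cycling Pdgfra+ cells stood at 122 against 102 CPM (0.26, -0.54 to 0.96) and 209.6 against 93.8 CPM (1.16, 0.45 to 1.80), and after thinning the differences were 0.24 and -0.02. Most Pdgfra+ cells carried at least 2 UMIs of the 5 committed precursor genes (552 and 622 cells), and the 52 and 71 cells with none were shallower (median 3212 and 3219 against 5560 and 4648 UMIs). Hes1 was lower in the cells with the list, at 119.9 against 198 CPM in DTRneg (-0.72, -1.23 to -0.17) and 73.05 against 117 CPM in DTRpos (-0.69, -1.27 to -0.05). Notch2 was lower there as well in DTRneg, at 7.35 against 40.7 CPM on 23 and 7 UMIs (-2.47, -3.74 to -1.005). Pdgfra+ cells with fibroblast or Vtn UMIs were kept in this comparison, and their part in it was not tested. In Rgs5+ cells only 4 and 11 cells lacked the smooth muscle list, too few to compare. Only 2 (DTRneg) and 1 (DTRpos) of its 5 genes were found in at least 10% of Rgs5+ cells, so UMIs of the list do not mark a cell as smooth muscle.

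**Figure D5:**
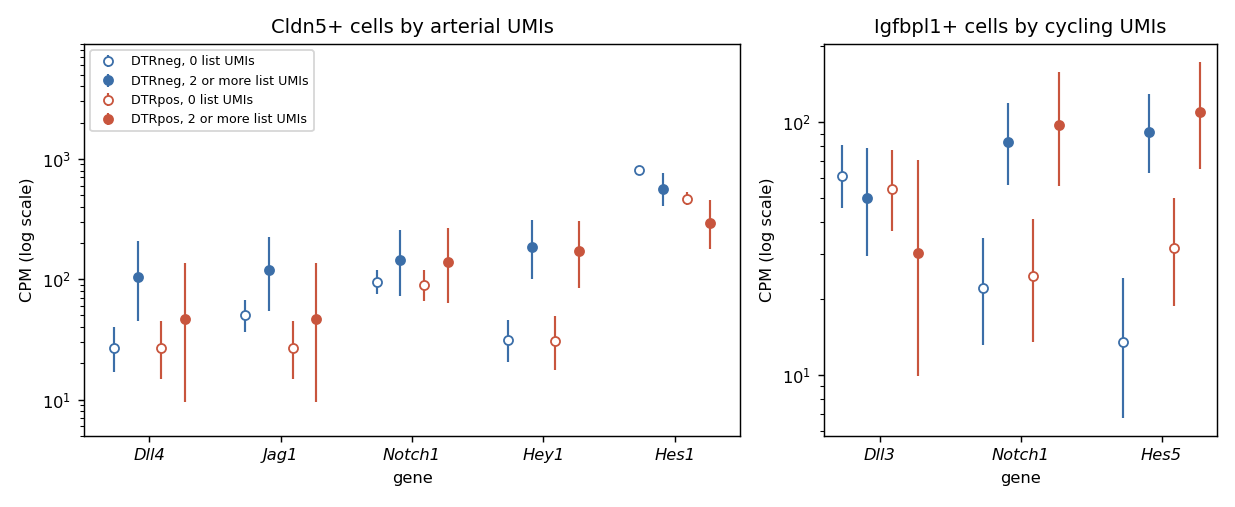
Levels in CPM on a log axis with exact 95% Poisson intervals: left, Cldn5+ cells with 2 or more UMIs of the arterial list (filled) or none (open); right, Igfbpl1+ cells with 2 or more cell cycle UMIs (filled) or none (open), DTRneg in blue and DTRpos in red. Hey1 is higher in arterial cells of both libraries, Notch1 and Hes5 are higher in cycling Igfbpl1+ cells, and the Dll3 intervals overlap.

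The genes most like each member over the 14 class and library levels were named by Pearson correlation of log2(CPM + 10), with no test, since the 14 values come from 2 libraries. Notch3 was most like Heyl (r = 0.994), a Hey family gene, and like the pericyte gene Atp13a5 (0.993), a marker of the list that checked the Rgs5+ gate. Heyl stood at 272 and 238 CPM in Rgs5+ cells. Dll3 was closest to Cxadr (0.993) and Lrrtm4 (0.985), Hes5 to Ntrk2 (0.986) and Fmn2 (0.985), and Notch2 to Acsf2 (0.960), Entpd2 (0.959) and Gli1 (0.956). Notch1 and Jag1 shared Tnfrsf1a among their nearest genes (0.971 and 0.954). Hes1 was nearest to Ifngr1 (0.959), a chain of the interferon gamma receptor, and to Ccn1 (0.957). Dll1 was nearest to AI506816 (0.962), and Hey1 had the lowest of these nearest values, with Slc38a3 at 0.938. Dll4 had too few UMIs for this.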

How the data were processed

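Single hippocampal cells that lacked CD45 and Thy1 were measured in 2 droplet libraries, 1 per genotype; the meningeal libraries were not used here. Each deposited table gives, for every barcode, whole-number UMI counts of genes that Cell Ranger 6.1.0 produced, per the file headers, and mm10 and Seurat are named in the submitters' processing notes. The annotation release is not given in the sources used here. Barcodes with at least 500 genes and under 15% mitochondrial UMIs were kept (7105 and 5849 of 8220 and 6548), and 241 and 158 doublets called by Scrublet in Scanpy 1.11.5 were removed. Counts were summed per class and library. Levels carry exact Poisson intervals, shares exact binomial (Clopper-Pearson) intervals and ratios exact conditional binomial intervals, all at 95% (SciPy 1.17.1). The ratio interval was tested on simulated data, Poisson counts as the interval itself assumes. That test does not cover UMIs gathered in few cells. A ratio needed 50 UMIs over both libraries. A count of 0 was given the limit of 3 counts. Thinning drew 2000 UMIs per cell and left out shallower cells. Named were the 10 genes, per class up to 4 pathway genes with the largest ratio past 1.5-fold, per role the gene with the most UMIs, and the 3 genes most like each member. Some genes that this rule names are not reported here. The genes and lists were chosen with earlier results of these data known, and the stress list after seeing the data. Alternatives changed the gate, filters, doublet removal, depth, scaling, fold and minimum.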

Additional observations from a re-analysis of the deposited data

Results flagged for a closer look

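Dll1 stood in opposite directions in 2 classes of the oligodendrocyte lineage. Its ratio of DTRpos over DTRneg was 0.28 on the log2 scale in Mog+ cells (0.01 to 0.56) and -0.45 in Pdgfra+ cells (-0.85 to -0.04), with 1 library a group. The difference between the classes was not tested. With cells thinned to 2000 UMIs before the gate the ratio in Mog+ cells was -0.08, a change that also leaves out shallow cells and moves cells between classes.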

How the results depend on the processing

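With 1 library a group, no alternative stands in for replicates, and every interval covers counting error only. No paired analysis was possible because each group has 1 library and the labels give no shared replicate numbers. Of the pairs of gene and class, 9 lay past 1.5-fold. The number was 2 with a fold of 2 and 4 with at least 200 UMIs, where fewer pairs qualify, and 7 without the Riiad1+ class. For the wider pathway list the number was 12, and it was 4 with cells thinned to 2000 UMIs before the gate, 0 with a fold of 2, 25 with at least 20 UMIs and 1 with at least 200 UMIs. The Hes1 ratio stayed past 1.5-fold on the lower side in all 10 alternatives in Pdgfra+ (-1.09 to -0.70) and Riiad1+ cells (-3.15 to -2.03), in all 9 in Cldn5+ (-0.87 to -0.75) and Rgs5+ cells (-1.48 to -0.85), and in 2 of 9 in Aqp4+ cells. Hes5 in Aqp4+ cells stayed above 0 (0.18 to 0.39), but in sparse classes it ran from -1.40 (thinned, 22 UMIs) to 2.39 in Igfbpl1+, from -0.26 to 0.68 in Riiad1+ and from 0.12 to 1.79 in Mog+ cells. Notch1 ran from -0.75 to 0.34 in Igfbpl1+ and up to 0.83 in Mog+ cells. Hey1 in Mog+ cells was past 1.5-fold in 7 of 9, and Jag1 in Cldn5+ cells in 7 of 9 (-1.08 to -0.21). Classes set by whole marker lists gave 0 Riiad1+ cells. The class with the highest level was the same for all 10 genes, except that with such classes Notch2 and Hes5 were highest in Aqp4+ cells, and with thinned cells Hey1 was highest in Cldn5+ cells. Few UMIs limit Dll4 in all classes, and few cells limit the Riiad1+ class.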

Other observations

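Cells outside the gates also held these genes. Choroid plexus-like cells, with at least 5 UMIs of Folr1, Kl and Kcnj13 (139 DTRneg and 34 DTRpos cells), had Hes1 at 74.6 and 103 CPM and Notch2 at 30.1 and 38.5 CPM. Fibroblast-like cells (31 and 23) had Hes1 at 653 and 342 CPM, Notch2 at 225 and 119.7 CPM and Jag1 at 33.8 and 17.1 CPM. Among ependymal-like cells (8 and 3) Hes1 was 439.6 and 169 CPM and Notch2 167 and 254 CPM. Within Aqp4+ cells, those with at least 2 UMIs of the 3 radial glia-like genes held less Hes5 than those with none, at 288 against 395 CPM in DTRneg (-0.46, -0.77 to -0.13) and 356 against 462 CPM in DTRpos (-0.38, -0.62 to -0.13). Only 67 and 122 cells had none, against 382 and 297 with at least 3 list UMIs, so the list does not pick out a rare stem-like subset. Cells with none were also shallower (median 3526 and 3022 UMIs against 4655 and 3970). Riiad1+ cells, richest in the list (2813 and 2342 CPM against 990 and 795 in Aqp4+ cells), had the highest Hes5 of the classes.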
